A study of Mus musculus with 10 samples.

Results

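The 10 genes described here encode the PIWI proteins of the mouse testis and the factors that make, load or stabilise their small RNAs: Piwil1, Piwil2, Piwil4, Mael, Mov10l1, Ddx4, Asz1, Pld6, Henmt1 and Gtsf1. They were chosen by name, and all 10 had a row among the 28125 genes of the scRNA-seq matrix and among the 30670 genes of the scATAC-seq matrix. Nuclei of whole testes came from wild-type mice at 11, 17 and 25 days postpartum (dpp) and, at an age of 8 weeks, from Cre/+ controls and from Nfya-CKO animals, and RNA and open chromatin were read together, with 1 library per condition and assay. Nfya-CKO mice are Nfya fl/fl; Stra8-Cre on C57BL/6J, in which Cre removes exons 5 to 6 of Nfya, a subunit of the CCAAT-binding factor NF-Y. Both 8-week-old groups carry the Stra8 allele with a ZsGreen1 and Cre cassette placed ahead of its stop codon, so that Cre is made from the spermatogonial stages until meiotic entry. The number of mice behind a library is not given in the sources used here.

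The deposited matrices hold 1 value per gene for each of 13 cell populations, pooled over the libraries. The populations are spermatogonia before (undiff. SpG) and after the onset of differentiation (diff. SpG), preleptotene (pL), early leptotene, leptotene and zygotene (eL/L/Z), leptotene, zygotene and early pachytene (L/Z/eP), middle and late pachytene (mP/lP) and diplotene (D) spermatocytes, round (RS) and elongating (ES) spermatids, Sertoli cells, other somatic cells, unknown cells, and spermatogonia of the Nfya-CKO library (SpG Nfya-CKO). Somatic cells of Nfya-CKO keep Nfya. RNA levels are given as mean UMIs per 10000 UMIs of a cell, and accessibility as signal per 1000000 over nuclear genes (abbreviated s.p.m.). No per-length values were computed, so levels are compared between populations, not between genes. Because libraries are pooled and each condition has 1 library, no replicate spread exists and no test was made. Differences are described by size, with 95% intervals that cover counting error only.

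PIWI proteins are Argonaute family members that bind PIWI-interacting RNAs (piRNAs), small RNAs that guide the silencing of transposons and, during meiosis, the cleavage of other transcripts in the male germ line. Long precursors are exported to granules beside mitochondria, opened by RNA helicases, cut by the nuclease of the mitochondrial surface, loaded into a PIWI protein, trimmed and 2'-O-methylated at the 3' end. Prepachytene piRNAs are made in fetal and newborn germ cells and in spermatogonia, whereas pachytene piRNAs are made in spermatocytes and round spermatids and depend on the transcription factor A-MYB (Mybl1).

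Several features of the libraries bear on every value below. Of 39674 scRNA-seq cell barcodes, 5030 (12.7%) occurred in more than 1 library, against 982 of 342825 (0.286%) in scATAC-seq. Most lay between Cre/+ and Nfya-CKO, which shared 3813 barcodes, and in 3808 of these the deeper cell had at least 5-fold more UMIs, with a median of 11.1-fold. The juvenile libraries shared 703 barcodes between 11 and 17 dpp, 853 between 17 and 25 dpp and 621 between 11 and 25 dpp, with at least 5-fold unequal UMIs in 701, 679 and 293. Over all pairs of libraries, the cell with at least 5-fold fewer UMIs made up 56.6% of ES, 51.7% of other somatic cells, 21.6% of eL/L/Z, a population with 74 Cre/+ and 4 Nfya-CKO cells, and 15.6% of diff. SpG, but 0.930% of undiff. SpG, 0.614% of mP/lP and none of 491 SpG Nfya-CKO cells. Of 2646 other somatic cells of the Nfya-CKO library that were the shallower of a barcode shared with Cre/+, 98.9% shared it with a Cre/+ germ cell. Conversely, 175 SpG Nfya-CKO cells shared a barcode with a Cre/+ cell that had a median of 9.54-fold fewer UMIs, and 143 of these Cre/+ cells were counted as diff. SpG. The matrices are pooled, so no value could be recomputed without these cells, and their part in the results was not tested.

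**Figure D1:**
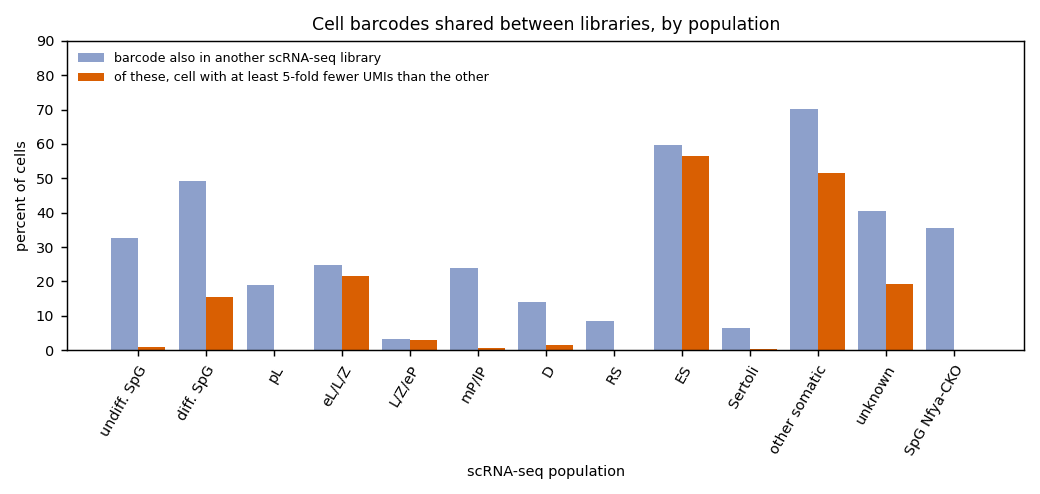
Percent of the scRNA-seq cells of each population whose barcode also occurs in another scRNA-seq library (blue), and percent that are the cell with at least 5-fold fewer UMIs of such a barcode (orange). ES and other somatic cells have the tallest orange bars, at 56.6% and 51.7%, and SpG Nfya-CKO has none.

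Libraries held 30227701 to 64967271 UMIs and 177596122 to 872964488 fragments. Nfya RNA was not lower in SpG Nfya-CKO (1.11 UMIs per 10000) than in undiff. SpG (0.456) or diff. SpG (0.667), so the library is called by its label. These values cover the whole gene and do not show whether exons 5 to 6 are present. By western blotting and immunohistochemistry, the study reports that germ cells lost NFYA protein and that somatic cells kept it. Undiff. SpG came to 92.0% from wild-type juveniles and diff. SpG to 84.5% from Cre/+, so age, genotype and population cannot be told apart. The study showed Piwil1, Piwil2, Tdrd5 and Mybl1 among the markers of its populations, which are clusters of the same RNA, so their high level in mP/lP is partly built in. Of the fixed markers, Pou5f2 for pachytene was low everywhere (0.0417 to 0.274), while Zbtb16, Stra8, Sycp1, Acrv1, Prm1 and Sox9 were highest among the control populations where the labels place them, Sycp3, a marker of early prophase, was highest in mP/lP (3.82 against 2.81 in L/Z/eP), Kit was highest in pL and Sohlh1, a marker of differentiation, was highest among control germ cells in undiff. SpG. Spermatid RNA was present in diff. SpG (Prm1 3.94 against 0.00525 in pL), and the Leydig cell transcript Insl3 stood at 39.8 in SpG Nfya-CKO against 0.0640 in undiff. SpG.

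Because NF-Y binds CCAAT, the 250 bases before the transcription start were searched in the promoter table of RefSeq (GRCm38.p6, equal to mm10), which held 11 entries for 9 of the 10 genes; Piwil2 has none. Of the 11 windows, 5 had the letters CCAAT on either strand (1 each of Piwil1, Mael, Mov10l1, Ddx4 and Pld6), as did 33.8% of 32851 windows of the same length. The same 5 windows also held the palindromic E-box CACGTG, which 6.02% of all windows held. These 5 windows had 61.6% to 70.4% G or C bases. Over all windows the median was 52.4% and the upper quartile 61.2%, and the part of base content in these counts was not tested. The MYB letters CAACNG were found in 4 of the 11 windows, of 3 genes (29.3% of all windows), the GC box GGGCGG in 8 windows (32.7%), and CNCCTCAG, the letters searched for STRA8, in none (6.42%). No CCAAT match overlapped a CACGTG match. The windows of Ddx4 and Henmt1, and 1 of the 2 windows each of Piwil4 and Pld6, lie within the longest RefSeq model of their own gene. The only MYB match of Piwil4 is in that inner window, which also overlaps Gm10706. The windows of Piwil1, Mov10l1 and Gtsf1 overlap their own gene models by 175, 103 and 18 bases. A match is a description of letters and not of binding. The windows of Mael and Pld6 are shown as examples with both motifs and that of Piwil4 as one with neither, together with the 30 bases around the CCAAT of Piwil1. All are written 5′ to 3′ on the strand of the gene, with CCAAT, its complement ATTGG and CACGTG in capitals.
Mael, chr1:166238745-166238994, minus strand: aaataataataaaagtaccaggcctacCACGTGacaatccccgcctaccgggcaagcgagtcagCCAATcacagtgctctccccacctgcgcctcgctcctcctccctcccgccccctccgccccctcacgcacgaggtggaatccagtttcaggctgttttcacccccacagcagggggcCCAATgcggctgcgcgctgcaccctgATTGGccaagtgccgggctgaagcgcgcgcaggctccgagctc
Pld6, chr11:59787658-59787907, minus strand: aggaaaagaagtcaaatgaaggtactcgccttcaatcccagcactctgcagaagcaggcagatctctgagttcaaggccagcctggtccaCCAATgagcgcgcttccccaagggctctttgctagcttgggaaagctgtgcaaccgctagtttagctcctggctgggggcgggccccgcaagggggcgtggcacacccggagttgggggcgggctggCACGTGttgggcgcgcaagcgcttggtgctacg
Piwil4, chr9:14740673-14740922, minus strand: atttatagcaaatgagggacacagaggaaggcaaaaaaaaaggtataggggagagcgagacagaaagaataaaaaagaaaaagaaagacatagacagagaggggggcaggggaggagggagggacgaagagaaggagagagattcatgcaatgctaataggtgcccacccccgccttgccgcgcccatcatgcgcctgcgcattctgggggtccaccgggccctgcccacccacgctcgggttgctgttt
Piwil1, chr5:128736062-128736091, plus strand: ccaccCACGTGgcagCCAATcagggcccag
In Mael the CCAAT letters begin 186, 69 and 43 bases before the start and the E-box 223 bases before it. In Pld6 they begin 160 and 33 bases before the start. In the Piwil1 window they begin 169 bases before the start, between E-boxes at 179 and 154.

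The 3 PIWI genes had 3 different courses. Piwil1 (chr5:128736071-128755474), which encodes MIWI, the PIWI protein of pachytene spermatocytes and round spermatids, was expressed at 0.712 UMIs per 10000 in undiff. SpG, 1.76 in diff. SpG, 0.282 in pL, 1.64 in eL/L/Z, 4.85 in L/Z/eP, then 11.4 in mP/lP, 5.60 in D, 2.56 in RS and 2.20 in ES. The level in mP/lP was thus 40.3-fold that in pL and was lower at each later stage. Of the 8 pairs of neighbours in the order of its levels, only diff. SpG and eL/L/Z had intervals that overlapped. The spermatocyte transcript Adam2 was also higher in diff. SpG (1.08) than in undiff. SpG (0.252) or pL (0.101). The part of spermatocyte RNA in the Piwil1 level of diff. SpG was not tested. The steps from pL to eL/L/Z, to L/Z/eP and to mP/lP were 2.19, 1.51 and 1.21 on the log2(value + 0.1) scale.

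Piwil2 (chr14:70372477-70436898), which encodes MILI, the PIWI protein present in both piRNA phases, varied only 2.84-fold among the germ cells. Its RNA was 3.18 in undiff. SpG, 2.78 in diff. SpG, 2.02 in pL, 2.62 in eL/L/Z, 3.45 in L/Z/eP, then 4.98 in mP/lP, 3.01 in D, 1.75 in RS and 2.45 in ES. It was 0.530 in Sertoli cells and 1.47 in other somatic cells, and among germ cells had its highest value in mP/lP and its lowest in RS. Piwil4 (chr9:14701776-14740672), which encodes MIWI2, the nuclear PIWI protein of transposon methylation in fetal germ cells, was highest at the start of the series. Its RNA was 0.867 in undiff. SpG, 0.0862 in diff. SpG, 0.0826 in pL, 0.158 in eL/L/Z, 0.0186 in L/Z/eP, then 0.0101 in mP/lP, 0.0217 in D, 0.0142 in RS and 0.0254 in ES. The step from undiff. to diff. SpG was -2.38 on the log2(value + 0.1) scale, and the 5 populations from L/Z/eP on lay below the Sertoli level of 0.0652. Among these 5, intervals overlapped between neighbours in the order of levels, but those of D (0.0157 to 0.0292) and mP/lP (0.0075 to 0.0134) did not. Piwil4 overlaps 3 other annotated genes and Piwil2 overlaps 2. Mov10l1 (with Gm23737), Henmt1 (with Fam102b) and Gtsf1 (with Gm52195), described below, overlap 1 each. Whether counting used the strand is not given in the sources used here.

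**Figure D2:**
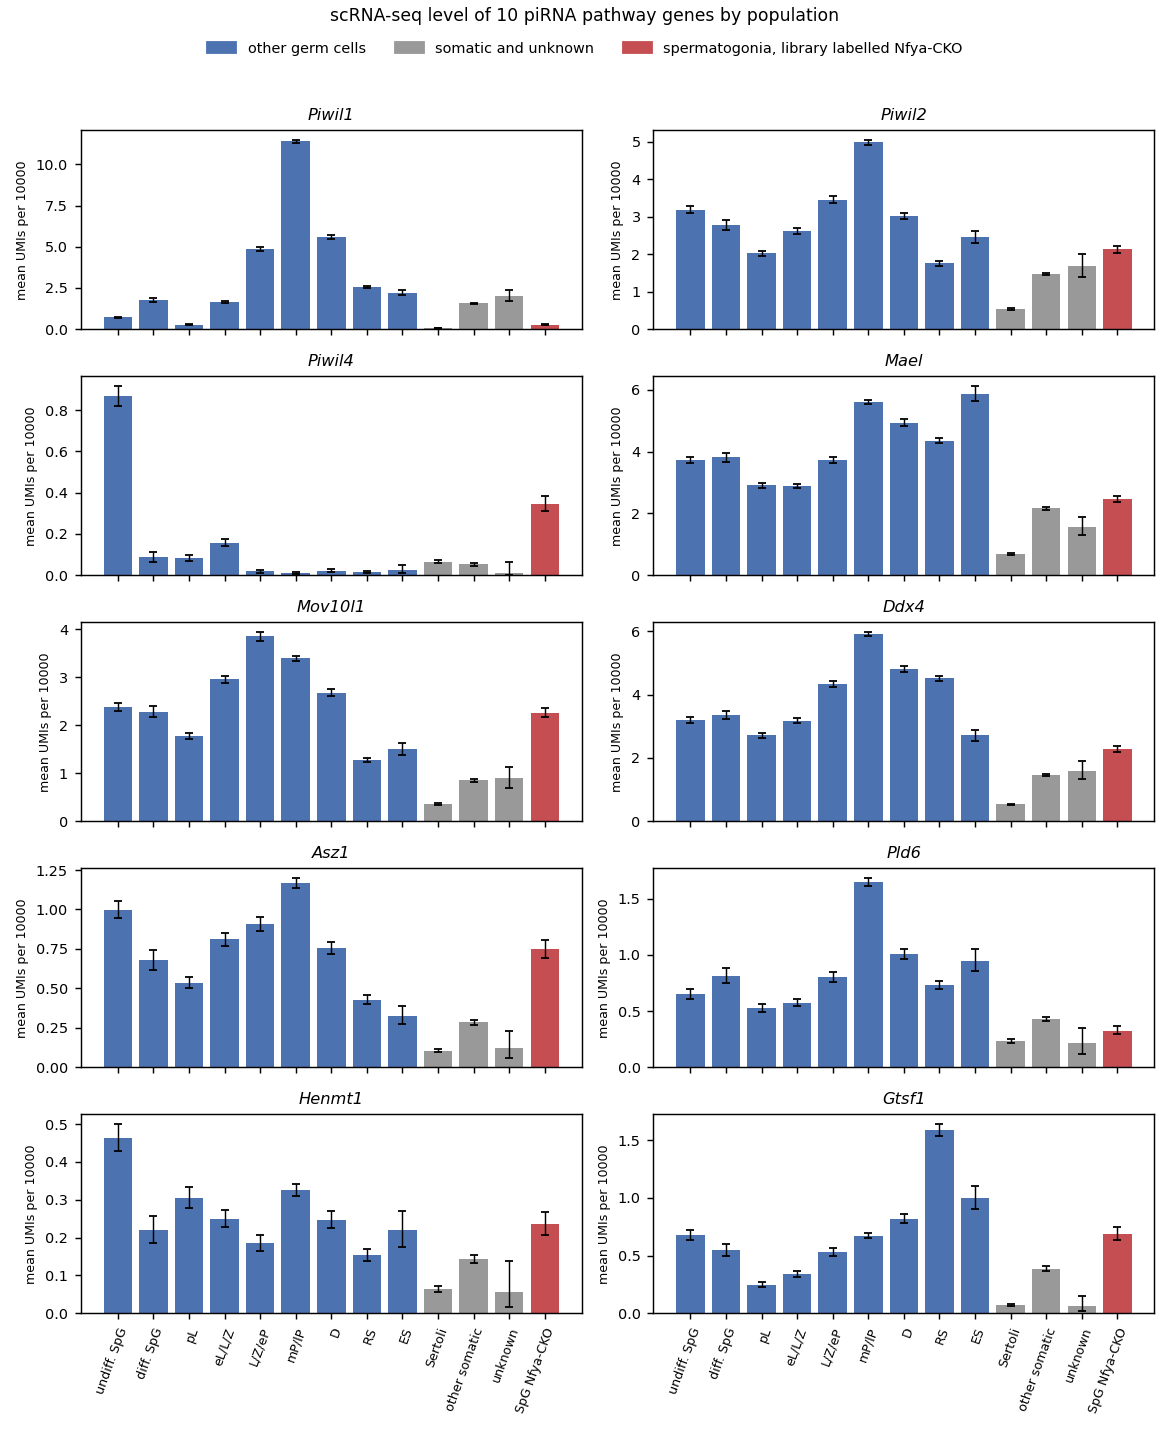
Mean UMIs per 10000 of each of the 10 genes in 13 populations; bars are the pooled values of the matrix and whiskers are approximate 95% Poisson intervals for counting error only. Piwil1 peaks in mP/lP at 11.4, Piwil4 in undiff. SpG at 0.867 and Gtsf1 in RS at 1.59, while Piwil2, Mael and Ddx4 are seen in every germ cell population.

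The RNA helicases were highest in different populations. Ddx4 (chr13:112598333-112652633), the germ cell helicase MVH of the chromatoid body, was 3.20 in undiff. SpG, 3.36 in diff. SpG, 2.71 in pL, 3.18 in eL/L/Z, 4.34 in L/Z/eP, then 5.91 in mP/lP, 4.80 in D, 4.51 in RS and 2.71 in ES. Its highest and lowest germ cell values were 2.18-fold apart, with the top in mP/lP and equal lows in pL and ES. Mov10l1 (chr15:88982891-89055152), the helicase that binds piRNA precursors, was 2.38 in undiff. SpG, 2.28 in diff. SpG, 1.77 in pL, 2.95 in eL/L/Z, 3.85 in L/Z/eP, then 3.39 in mP/lP, 2.67 in D, 1.27 in RS and 1.5 in ES. It was the only one of the 10 with its top in L/Z/eP, a stage before Piwil1. From D to RS it was lower by -1.02 on the log2(value + 0.1) scale, where Ddx4 was lower by -0.09.

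Mael (chr1:166201385-166238744), an HMG-box protein of the germ granule that acts in transposon silencing and pachytene piRNA production, was 3.73 in undiff. SpG, 3.82 in diff. SpG, 2.91 in pL, 2.89 in eL/L/Z, 3.73 in L/Z/eP, then 5.61 in mP/lP, 4.94 in D, 4.36 in RS and 5.88 in ES. This was the smallest range of the 10 genes, 2.03-fold. The highest values, in ES and mP/lP, had intervals that overlapped, and the ES value rests on a population in which 56.6% of cells were the shallower of a shared barcode.

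The pair of mitochondrial factors peaked in mP/lP as well. Asz1 (chr6:18050964-18109061), an ankyrin repeat protein that anchors the machinery at the mitochondrial surface, was 0.999 in undiff. SpG, 0.678 in diff. SpG, 0.536 in pL, 0.810 in eL/L/Z, 0.907 in L/Z/eP, then 1.17 in mP/lP, 0.757 in D, 0.427 in RS and 0.327 in ES. Pld6 (chr11:59783893-59787657), the mitochondrial nuclease known as Zucchini in flies, was 0.653 in undiff. SpG, 0.813 in diff. SpG, 0.530 in pL, 0.574 in eL/L/Z, 0.802 in L/Z/eP, then 1.65 in mP/lP, 1.0 in D, 0.732 in RS and 0.95 in ES. Asz1 had high values at both ends of the premeiotic to pachytene series, whereas Pld6 stood out only in mP/lP, and 6 of its 8 neighbouring pairs had intervals that overlapped.

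Henmt1 and Gtsf1 departed from the pachytene pattern in opposite directions. Henmt1 (chr3:108939454-108979885), the methyltransferase of piRNA 3' ends, was 0.463 in undiff. SpG, 0.219 in diff. SpG, 0.305 in pL, 0.249 in eL/L/Z, 0.185 in L/Z/eP, then 0.325 in mP/lP, 0.248 in D, 0.153 in RS and 0.219 in ES. Gtsf1 (chr15:103402458-103430445), a zinc finger cofactor of PIWI proteins, was 0.681 in undiff. SpG, 0.546 in diff. SpG, 0.247 in pL, 0.336 in eL/L/Z, 0.527 in L/Z/eP, then 0.672 in mP/lP, 0.820 in D, 1.59 in RS and 1.0 in ES. Henmt1 was thus highest before meiosis, with 6 of 8 neighbouring pairs overlapping, and Gtsf1 was lowest in pL and highest in RS, a 6.44-fold range.

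Counted by peak, 5 of the 10 genes were highest in mP/lP (Piwil1, Piwil2, Ddx4, Asz1 and Pld6), where 11.3% of 15250 genes with a mean of at least 0.05 were highest. All 10 passed that filter. Without the study's markers Piwil1 and Piwil2, the count was 3 of 8, and with median-of-ratios scaling Ddx4 no longer peaked there. A further 2 were highest in undiff. SpG (19.2% of all genes), and 1 each in L/Z/eP (4.91%), RS (18.2%) and ES (15%). Step by step, few genes passed 2-fold on the log2(value + 0.1) scale. From undiff. to diff. SpG, Piwil4 was lower (6.28% of all genes) and Piwil1 higher (9.57%), and from undiff. SpG to pL, Piwil1, Piwil4 and Gtsf1 were lower (6.19%). Diff. SpG held spermatocyte and spermatid RNA (Adam2 1.08, Prm1 3.94), and its part in the first of these steps was not tested. Piwil1 was the only one higher from pL to eL/L/Z (4.41%) and from there to L/Z/eP (5.45%), where Piwil4 was lower (3.97%). After pachytene, Piwil1 was lower from mP/lP to D (0.184%) and, with Mov10l1, from D to RS (3.34%).

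From pL to mP/lP, 5 of the 10 were at least 2-fold higher on the log2(value + 0.1) scale (15.6% of all genes). These were Piwil1, Piwil2, Ddx4, Pld6 and Gtsf1. None was at least 2-fold lower on that scale (19.2%). Without the 0.1, Piwil4 was also past 2-fold lower (0.0101 against 0.0826, ratio 0.123). Asz1 was then past 2-fold higher (1.17 against 0.536, ratio 2.18). In the last step, from L/Z/eP to mP/lP, Piwil1 alone was 2-fold higher (1.38% of all genes), with Pld6 just below at 0.96 on the log2(value + 0.1) scale and past it with a pseudocount of 0.01 or with median-of-ratios scaling.

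From mP/lP to RS, 5 genes were at least 2-fold lower (9.36% of all genes): Piwil1 by -2.11, Piwil2 by -1.46, Mov10l1 by -1.35, Asz1 by -1.27 and Pld6 by -1.07 on the log2(value + 0.1) scale. Gtsf1 was 2-fold higher, by 1.13 (17.6%). The median of the 10 was -0.91, against -0.08 over all genes. This count depended on the scale: it was 2 with a pseudocount of 1 (Piwil1 and Piwil2), and only Piwil1 remained with median-of-ratios scaling.

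Accessibility was flatter than RNA. The highest germ cell value was 1.53 to 2.04 times the lowest in 8 of the 10 genes, and 4.56 times in Gtsf1 and 6.48 times in Piwil4. Piwil4 signal was 21.3 s.p.m. in undiff. SpG, 9.54 in diff. SpG, 9.20 in pL, 6.99 in eL/L/Z, 6.06 in L/Z/eP, 6.13 in mP/lP, 6.22 in D, 6.57 in RS and 3.29 in ES, so that signal and RNA were both highest in undiff. SpG. Gtsf1 signal was 27.9 in undiff. SpG, 17.3 in diff. SpG, 13.4 in pL, 19.7 in eL/L/Z, 30.03 in L/Z/eP, 38.3 in mP/lP, 48.1 in D, 61.1 in RS and 26.9 in ES, with the RNA minimum and maximum at the same stages. Piwil1 differed: its signal lay between 5.56 in diff. SpG and 9.5 in RS and was 6.52 in mP/lP, where its RNA was highest. These Piwil1 values are low, and the part of this in the difference was not tested. ES accessibility rests on 124 cells.

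For the other genes, the accessibility minimum lay between undiff. SpG and eL/L/Z and the maximum between L/Z/eP and ES, apart from Asz1 and Henmt1. Piwil2 was lowest in pL at 56.5 and highest in L/Z/eP at 108.1, Ddx4 went from 51.5 in pL to 82.6 in L/Z/eP, Mov10l1 from 45.4 in undiff. SpG to 77.9 in D, and Pld6 from 52.9 in eL/L/Z to 81.0 in D. Mael signal was lowest in undiff. SpG at 53.1 and highest in ES at 103.7. Asz1 ranged from 23.5 in ES to 45.7 in RS, with 39.8 in undiff. SpG, and Henmt1 from 26.1 in ES to 53.4 in undiff. SpG. By peak of accessibility, 3 of the 10 were highest in RS (22.9% of all genes), 2 each in undiff. SpG (20.5%), L/Z/eP (5.08%) and D (7.16%), and 1 in ES (22.6%). None of the 10 was most accessible in mP/lP (7.54% of 29475 genes). From pL to mP/lP 7 of the 10 were at least 25% more accessible (42.7%) and Piwil4 was at least 20% less (24.4%).

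**Figure D3:**
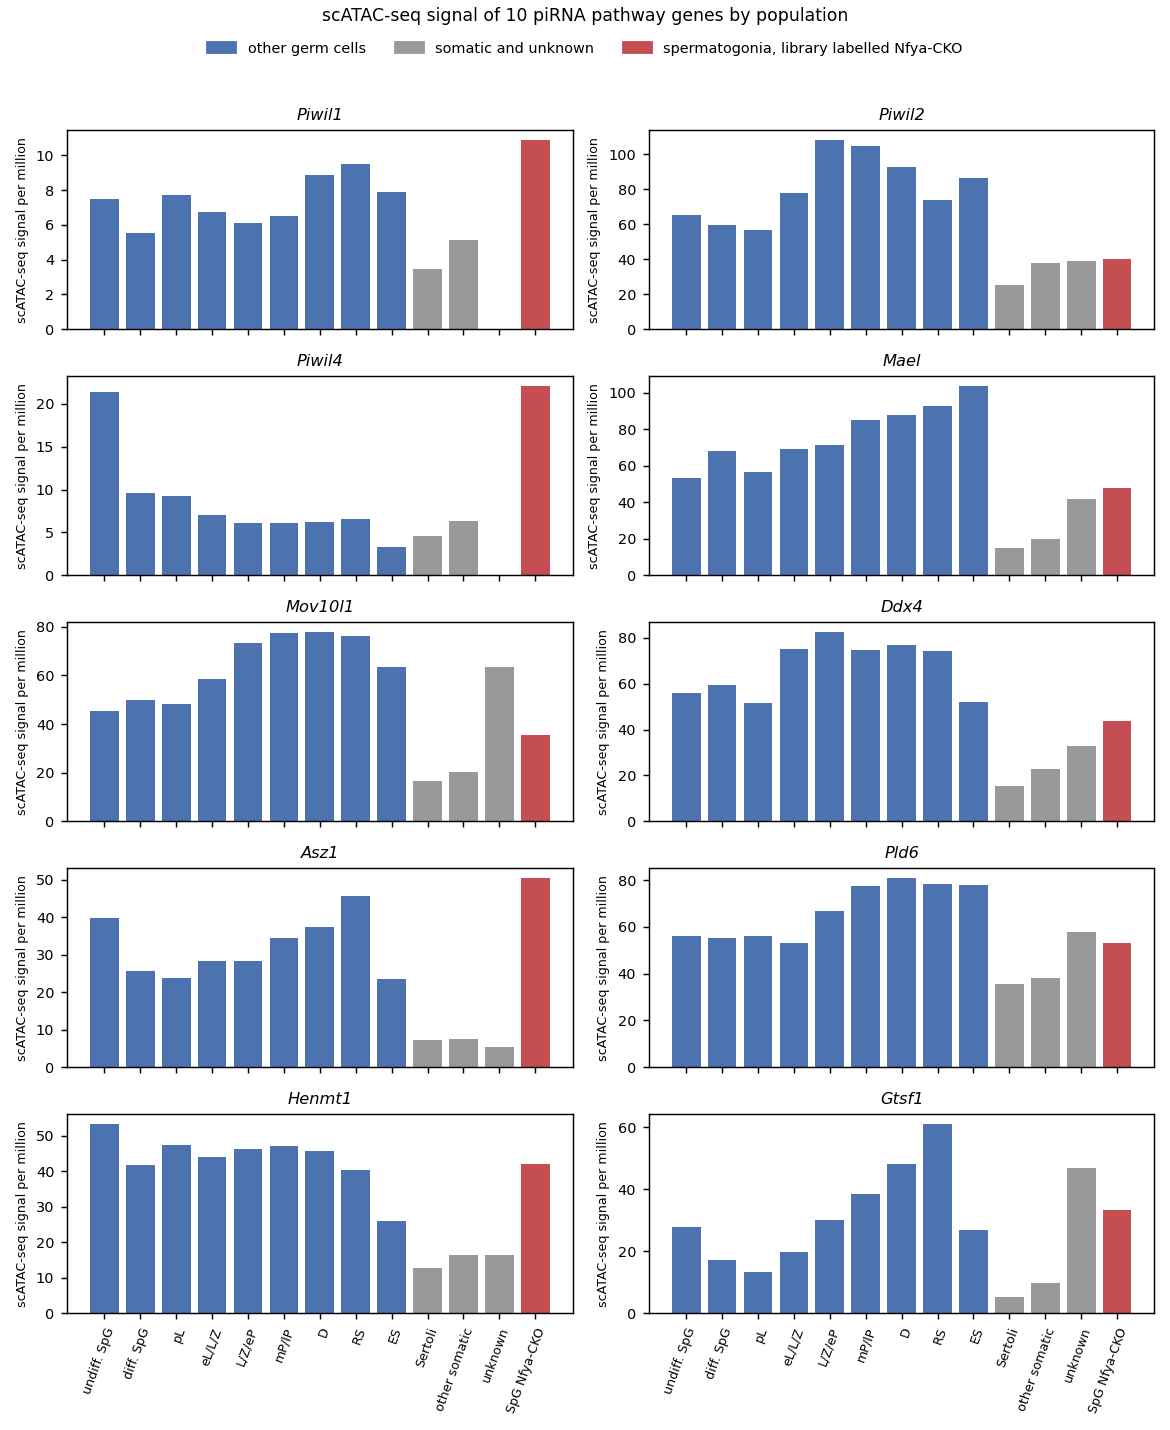
scATAC-seq signal per 1000000 over nuclear genes of the 10 genes in 13 populations; bars are pooled values without an error, and whether the matrix counts the window around the start site that the study used for promoters is not given in the sources used here. Piwil4 and Gtsf1 vary most among germ cells, and 9 of the 10 genes are lower in Sertoli cells than in any of 9 germ cell populations.

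Across the 9 germ cell populations, the Pearson r between log2 RNA and log2 accessibility was positive in 9 of 10 genes. It was 0.86 for Piwil4, 0.84 for Gtsf1, 0.79 for Ddx4 and Mael, 0.70 for Pld6, 0.60 for Piwil2, 0.49 for Henmt1, 0.27 for Asz1, 0.18 for Mov10l1 and -0.10 for Piwil1. These are descriptions over 9 points that share libraries and cells of unequal depth, and that of Piwil1 rests on low accessibility values. Of the 23 further piRNA pathway genes described below, 21 also had a positive r over the same populations. The share of all genes with a positive r was not computed over 9 or 13 populations. Whether the counts of positive r set the 10 genes apart was thus not tested. Over all 13 populations r was positive in all 10 genes, and 5 values moved by more than 0.2: Mov10l1 to 0.69, Asz1 to 0.84, Henmt1 and Piwil2 to 0.85, and Gtsf1 to 0.56. Asz1 and Mov10l1 RNA was low in RS (0.427 and 1.27), where their accessibility was 45.7 and 76.4 s.p.m..

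**Figure D4:**
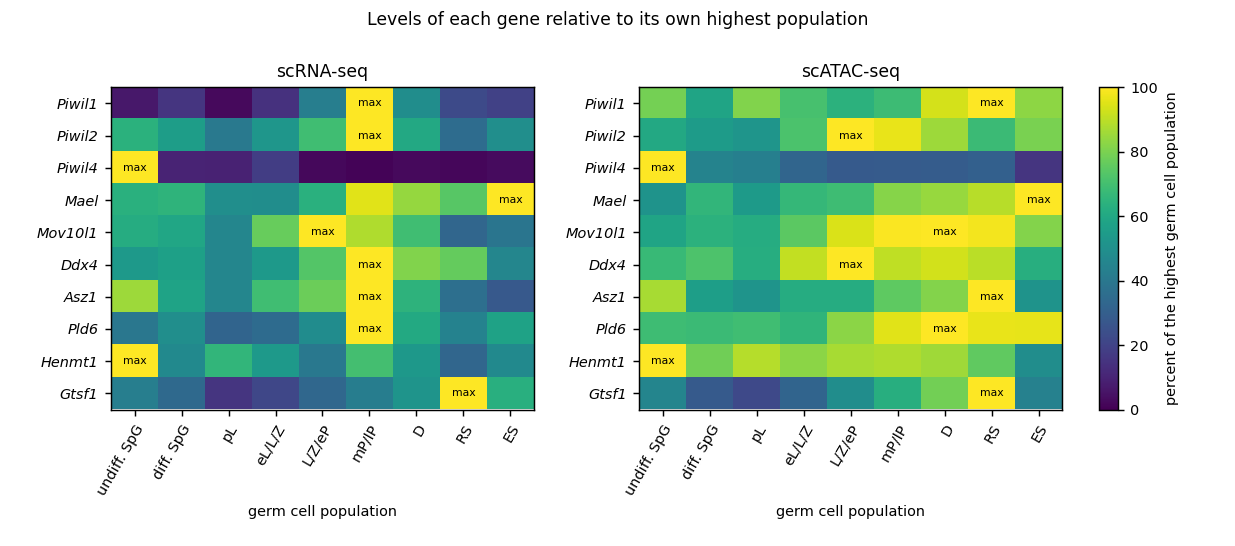
Level of each gene in 9 germ cell populations as a percent of its own highest value among them, for scRNA-seq on the left and scATAC-seq on the right; "max" marks the highest population. The RNA maximum lies in mP/lP for 5 genes (11.3% of all genes) and the accessibility maximum for none (7.54%).

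In Sertoli cells 9 of the 10 genes were lower than in any germ cell population, but not at 0, whereas other somatic cells overlapped the germ cells for some genes. Sertoli RNA was below each of the 9 germ cell populations in 9 of 10 genes (30.6% of all genes), the exception being Piwil4. It amounted to 0.678% of the highest germ cell level for Piwil1 and to 4.28% to 14.1% for the other 9. Spermatid transcripts were at 0.00485% to 0.0292% of their own highest level there, but 2866 and 382 of the 3265 Sertoli cells came from the 11 and 17 dpp libraries, which held 0 RS and 0 ES cells, so this share is no measure of free RNA for genes of earlier germ cells. Sertoli accessibility was likewise below all germ cell populations in 9 of 10 genes (25.8%), at 8.39% to 43.8% of the maximum. In other somatic cells the RNA of the 10 genes was 6.06% to 36.8% of the maximum, and spermatid transcripts were at 3.44% to 8.44%. Piwil1 was 1.57 there, above undiff. SpG and pL, Gtsf1 was 0.387, above pL and eL/L/Z, and Piwil4 was 0.0525, above the 5 populations from L/Z/eP on. Of these cells 4633 of 5883 came from the Nfya-CKO library, which also held 0 RS and 0 ES cells, and the part of the shared barcodes given above was not tested. The unknown population of 99 cells had 2.02 UMIs per 10000 of Piwil1 and listed its accessibility, over 54 cells, at 0.

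The further piRNA pathway genes, 23 by name of which 22 passed the filter (Dnmt3c did not), gave these counts. Of the 22, 10 were highest in mP/lP (11.3% of all genes), or 8 of 20 without the markers Tdrd5 and Mybl1, and 6 were highest in undiff. SpG (19.2%). From pL to mP/lP, 10 were at least 2-fold higher on the log2(value + 0.1) scale (15.6% of all genes). Among them were Tdrd1 (1.15 to 5.01), Tdrd5 (0.262 to 2.55), Tdrd6 (0.0220 to 2.75) and Exd1 (0.353 to 1.94), which encode tudor scaffolds and a processing factor. At least 2-fold lower on that scale were 3 (19.2% of all genes): Fkbp6, a cochaperone (7.26 to 3.18), Tex15, a factor of nuclear silencing (16.8 to 2.86), and Mov10, the paralog of Mov10l1 (1.01 to 0.140). Mybl1 itself was 0.287 in pL, 0.811 in eL/L/Z, 1.42 in L/Z/eP, then 1.51 in mP/lP, and Tcfl5, another activator of pachytene genes, was 1.02 in pL and 2.64 in mP/lP. The Gtsf1 paralogs Gtsf1l and Gtsf2 were highest in RS, at 1.45 and 1.28, as Gtsf1 was. Morc1, which acts in transposon silencing, was highest in undiff. SpG at 1.73 as Piwil4 was.

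Ranked by Pearson r of log2(value + 0.1) over the 9 germ cell populations among 10067 genes, the RNA pattern of Piwil1 was most like that of 3 piRNA precursor loci, with an r of 0.997 for the first, on band 11-qE1. That locus was at 0.0651 in pL, 2.23 in L/Z/eP, then 5.09 in mP/lP. Piwil4 was most like Fbxo41, whose row is identical to that of the locus pi-Fbxo41.1, and Egr4 (0.996 and 0.994), both highest in undiff. SpG. Mov10l1 was most like Stk31 (0.983), a tudor kinase of germ cells, with Mtif2 and Wwox next. Tdrd1 followed Nfs1 and Ralgps2 for Piwil2, and Tcfl5 followed Txnrd3 and Mks1 for Pld6. The nearest genes were Nt5m for Mael, Plekha5 for Ddx4, Mrpl1 for Asz1, Nadk2 for Henmt1 and Dcaf12 for Gtsf1. Among the 10 themselves, Mov10l1 and Asz1 had the highest r (0.88), followed by Piwil1 with Ddx4 and with Pld6 (both 0.85), and Piwil1 and Piwil4 had the lowest (-0.60). Of the 30 nearest genes, 5 were kept with all 13 populations and 14 with a higher filter on the mean.

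The precursor loci themselves are rows of the RNA matrix. This class was looked at after the ranking above had been seen. Of 97 loci with names of the form chromosome-band-number that passed the filter, 93 were highest in mP/lP (11.3% of all genes) and 49 were at least 2-fold higher there than in L/Z/eP (1.38%). Their summed level over all 100 in the matrix was 10.8 UMIs per 10000 in pL, 57.8 in eL/L/Z, 215 in L/Z/eP, 437 in mP/lP, 261 in D, 109.7 in RS and 102 in ES. Before meiosis it was 19.8 in undiff. SpG and 60.2 in diff. SpG, which also held spermatocyte RNA, and in Sertoli cells 5.17. The order of the 9 germ cell populations by this sum is that of Piwil1. Of 114 loci named after a host gene, which are mostly prepachytene, 41 were highest in undiff. SpG (19.2% of all genes) and 25 in mP/lP (11.3%), and 55 had a row identical to that of another gene.

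SpG Nfya-CKO cells, all from the library of 8-week-old Nfya-CKO mice, were compared with undiff. SpG, which came to 92.0% from wild-type juveniles. Age, genotype and library thus cannot be told apart in this comparison, for RNA or accessibility. Of the 10, 2 were at least 2-fold lower in RNA (3.08% of all genes) and none at least 2-fold higher (4.09%). Piwil1 was 0.255 UMIs per 10000 (95% interval 0.224 to 0.288) in SpG Nfya-CKO and 0.712 (0.668 to 0.758) in undiff. SpG, a log2 ratio of -1.19. Piwil4 was 0.347 (0.311 to 0.386) against 0.867 (0.819 to 0.918), a log2 ratio of -1.11. Both were low in these 2 populations, and neither reached 2-fold with a pseudocount of 1. In the direction of the difference, 9 of 10 were lower (49.1% of all genes; 10 with median-of-ratios scaling, 6 with diff. SpG as control), with a median of -0.57 against 0.01 over all genes.

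Next were Pld6 (0.327 against 0.653, log2 ratio -0.82) and Henmt1 (0.236 against 0.463, -0.75). Mael was 2.47 against 3.73, Piwil2 2.13 against 3.18 and Ddx4 2.28 against 3.20, and Asz1 was 0.748 against 0.999. Mov10l1 and Gtsf1 were close to equal, at 2.26 against 2.38 and 0.690 against 0.681. Of the further piRNA genes, none of the 22 was 2-fold lower on the log2(value + 0.1) scale (3.08% of all genes). Gtsf2 alone was 2-fold higher, at 0.702 against 0.255 (4.09% of all genes), and the median of the 22 was -0.21. Fkbp6 (4.44 against 8.95) lay just inside 2-fold on that scale. Without the 0.1, Fkbp6 was past 2-fold lower (ratio 0.496). So were Mybl1 (0.103 against 0.248, ratio 0.415), Dnmt3l (0.422), Gtsf1l (0.189) and Tdrd6 (0.132).

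Other transcripts also had unequal levels in these populations. The spermatocyte transcript Adam2 was 0.0474 in SpG Nfya-CKO and 0.252 in undiff. SpG, and the summed precursor loci of chromosome-band names were 6.58 and 19.8, with 43 of the 97 at least 2-fold lower (3.08% of all genes). Of the genes nearest to Piwil4, Egr4 was 1.45 against 4.16 and Fbxo41 0.879 against 1.5, and Zbtb16, a marker of undifferentiated spermatogonia, was 4.15 against 8.74, while Gfra1 was 1.20 against 1.08 and Uchl1, of the same list, 11.0 against 5.88. Both Leydig markers were higher in SpG Nfya-CKO (Insl3 39.8 and Cyp17a1 7.39, against 0.0640 and 0.0207). Median depth was 18361 UMIs in SpG Nfya-CKO and 9290 in undiff. SpG. The part of these in the results was not tested.

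Against diff. SpG the picture changed for Piwil4, which was higher in SpG Nfya-CKO by 1.26 (0.347 against 0.0862), while Piwil1 was lower by -2.39 (0.255 against 1.76) and Pld6 by -1.10 (0.327 against 0.813) on the log2(value + 0.1) scale. In this comparison 2 of 10 were at least 2-fold lower (10.5% of all genes) and 1 higher (6.86%). Diff. SpG shared 143 barcodes with SpG Nfya-CKO and held spermatid and spermatocyte RNA (Prm1 3.94, Adam2 1.08). Set between the stages, Piwil4 in SpG Nfya-CKO lay between undiff. and diff. SpG, and Piwil1 lay below both and close to pL (0.282), where the intervals overlapped.

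Accessibility in SpG Nfya-CKO did not follow RNA gene by gene. At least 20% less accessible than in undiff. SpG were 4 of 10 (16.1% of all genes): Piwil2, 40.0 against 65.1 s.p.m. (ratio 0.61), Ddx4, 43.8 against 55.8 (0.78), Mov10l1, 35.6 against 45.4 (0.79) and Henmt1, 42.1 against 53.4 (0.79). At least 25% more accessible were 2 (34.1%): Piwil1, 10.9 against 7.50 (1.45), and Asz1, 50.5 against 39.8 (1.27), the latter not with median-of-ratios scaling or with mitochondrial genes in the scale. Piwil4 was 22.1 against 21.3, Pld6 53.2 against 55.9, Mael 47.9 against 53.1 and Gtsf1 33.4 against 27.9. The genes with the lowest RNA ratios, Piwil1 and Piwil4, were thus not less accessible, and Mov10l1 was less accessible at near equal RNA. Piwil1 signal was low in both populations, so its ratio rests on small values. The median ratio was 0.93 against 1.07 over all genes, and 6 of 10 were below 1 (41.7%). Of the 23 further genes, 6 were at least 20% less accessible (16.1% of all genes), Tdrkh the lowest at 0.68. At least 25% more accessible were 2 of the 23 (34.1%).

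**Figure D5:**
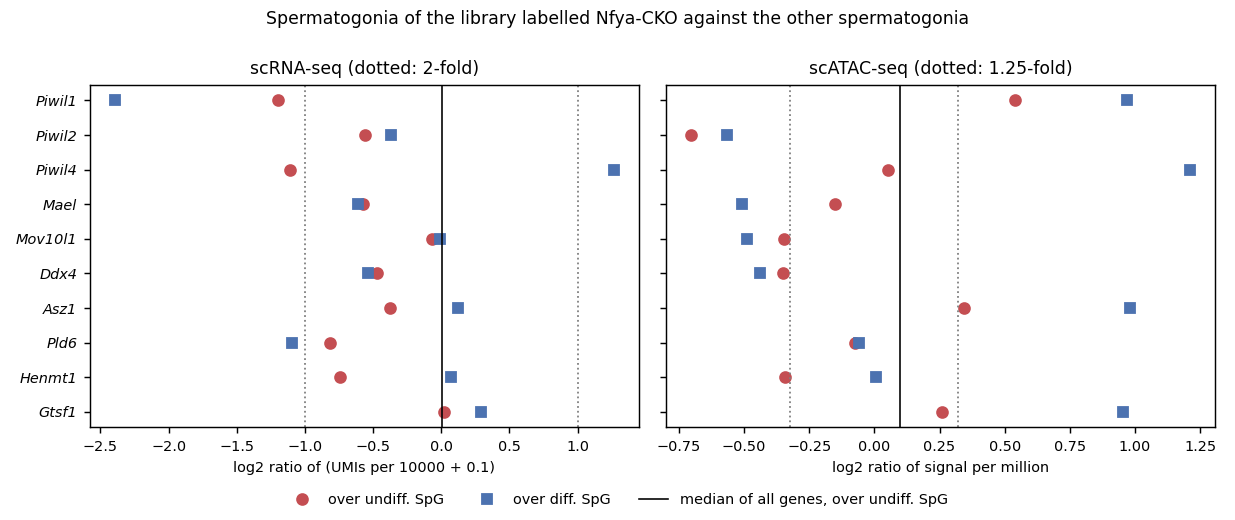
Log2 ratio of SpG Nfya-CKO over undiff. SpG (red circles) and over diff. SpG (blue squares) for the 10 genes, in scRNA-seq on the left and scATAC-seq on the right; dotted lines mark the size counted (2-fold in RNA, and 25% more or 20% less accessibility) and the black line the median of all genes over undiff. SpG. Piwil4 RNA lies on opposite sides of 0 for the 2 controls, and Piwil2 accessibility is the lowest of the 10 against both.

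Against diff. SpG, 4 of 10 were at least 20% less accessible (30.8% of all genes), namely Piwil2, Mael, Mov10l1 and Ddx4, and 4 more accessible (43.1%), namely Piwil4, Asz1, Piwil1 and Gtsf1. Henmt1 was 42.1 against 41.9, so its lower value holds against undiff. SpG only. Piwil2, Mov10l1 and Ddx4 were less accessible than in either control. Median TSS enrichment was 7.82 in SpG Nfya-CKO and 12.5 in undiff. SpG, and its part in these ratios was not tested.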

How the data were processed

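For scRNA-seq, the authors aligned reads to mm10 with STAR 2.7.10b, collapsed UMIs, removed cells with fewer than 500 genes or at least 5% mitochondrial UMIs in Seurat 5.2.1 and removed doublets. For scATAC-seq, they aligned with BWA 0.7.12, and filtered cells (1000 fragments, TSS score 4) and removed doublets with ArchR 1.0.3. The deposited matrices are on a natural log scale, the log of 1 plus a mean per 10000, pooled over libraries for each of 13 scRNA-seq populations; in scATAC-seq, where the study took coverage around the start site for promoters but the window behind this matrix is not given in the sources used here, these rest on the 31569 of 343866 cells with a named scRNA-seq population. Tables of single cells, also deposited, give a count of UMIs, genes or fragments, the percent of mitochondrial UMIs and the TSS enrichment, a ratio of coverage at start sites to flanks. Further value columns (12) were not used.

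Values were turned back with Python 3.11.15, numpy 2.4.6 and pandas 2.3.3. RNA was compared as log2(value + 0.1) where the mean over the populations reached 0.05, with 2-fold counted. This lowers the ratios of low genes. Accessibility was rescaled to 1000000 over nuclear genes, since mitochondrial genes took 31.2% to 64.5% of the signal, with 25% more or 20% less counted where the mean reached 1. Approximate UMIs per gene (value times the population's total) gave exact Poisson 95% intervals (scipy 1.17.1); these are approximate because the matrix is a mean over cells, and in the unknown population only 3.80% of low values were whole UMIs within 0.02. The same functions, tested on simulated counts with counting error only and changes larger than 2-fold, returned the changes put in. Changes near 2-fold or in low genes, and variation between cells or libraries, were not simulated. No p-value was computed. The genes, lists and thresholds were chosen with earlier results of these data known. Named genes are the 10, the further pathway list, the 3 genes most like each, Nfya, and marker and spermatid transcripts; the precursor loci were added after their values were seen. Promoters and gene coordinates are from RefSeq, GRCm38.p6. Alternatives were pseudocounts, scalings, filters and the control population.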

Additional observations from a re-analysis of the deposited data

How the results depend on the processing

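No paired analysis was possible because each condition and assay has 1 library and the matrices pool the libraries, and for the same reason no library could be left out. Of 100 alternative values of single genes, 7 changed sign. With a pseudocount of 1, 0 of the 10 genes were 2-fold lower in RNA in SpG Nfya-CKO than in undiff. SpG (Piwil1 -0.45, Piwil4 -0.47), since both were low in these 2 populations. With the same pseudocount, 2 were 2-fold lower from mP/lP to RS. With median-of-ratios scaling, 1 was lower from mP/lP to RS and 2 were higher from L/Z/eP to mP/lP, a count that was also 2 with a pseudocount of 0.01. With diff. SpG as control, Piwil4 RNA reversed to 1.26 and Henmt1 accessibility to 1.01, and Asz1 and Henmt1 RNA turned to 0.12 and 0.07, so that 6 of the 10 were lower in RNA instead of 9. Values near equality also crossed it: Gtsf1 RNA (-0.03) with median-of-ratios scaling, Piwil4 accessibility (0.94) with mitochondrial genes in the scale, and the Piwil1 correlation (0.01) over 13 populations. Without a filter on low genes, 1.69% of all genes were 2-fold lower. The median accessibility ratio of all genes was 1.07, 1.05 with median-of-ratios scaling and 0.9746 with mitochondrial genes in the scale. The median RNA log2 ratio of the 10 ranged from -0.62 to -0.19 over all settings, and the same 4 genes were at least 20% less accessible under each scaling and pseudocount tried. The shared barcodes and 124 ES cells with accessibility limit what can be read from ES, other somatic cells, eL/L/Z and diff. SpG.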
